A study of Mus musculus with 120 samples.

Results

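The genes described here are 10 mRNAs of the translation machinery that are classed with the ribosomal protein mRNAs but encode no ribosomal protein: Eef1a1, Eef1b2, Eef1d, Eef1g, Eef2, Tpt1, Npm1, Pabpc1, Naca and Eif4a2. They were taken by symbol from a count table of 23481 genes in mouse bone marrow derived macrophages, and all 10 had a row. The cells came from wild-type marrow of male C57BL/6 mice, 12 weeks old, were grown in culture with CMG supplement and carried a virus library of transcription factor reporters in every group. The 120 libraries formed 45 groups: halofuginone alone at 7 doses (2.4, 9.7, 39, 156, 625, 2500 and 10000 nM), the same doses with 2 mM proline, and controls, each at the times labelled T0, T1 and T4. Each dose had 2 libraries with proline and 2 without at a time, and each time had 12 controls. The study's design gives a pretreatment of 30 minutes before LPS, so T1 and T4 were read as times after LPS. The labels give no unit for the times, do not name the libraries that received LPS or the proline content of the control medium, and do not say that replicates were separate cultures, so p-values measure the spread between these libraries only.

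Terminal oligopyrimidine (TOP) mRNAs begin with a C followed by a run of pyrimidines, and their translation is switched on and off together with the activity of the kinase mTORC1 and the supply of amino acids. The class holds nearly all ribosomal protein mRNAs and many elongation factor mRNAs. Halofuginone blocks the prolyl-tRNA charging activity of the enzyme EPRS and so acts on cells like a shortage of proline, and added proline competes with the drug for that enzyme. LPS is a bacterial lipid that macrophages sense through Toll-like receptor 4. The counts measure mRNA abundance and say nothing of how well a TOP mRNA was translated.

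The first 24 bases of an annotated coding transcript of 4 members opened with C and at least 4 more pyrimidines, and they are shown because this tract is what places a gene in the class. Capitals mark the unbroken pyrimidine run, the sequences run 5′ to 3′ on the strand of the gene, and the transcripts are those of GENCODE M21 on GRCm38 (mm10).
Eef1b2-209, at chr1:63177130-63177153 on the plus strand: CTTTTTTTCCCTCagcgctggccg
Pabpc1-201, at chr15:36608950-36608973 on the minus strand: CCCCTTCTCCCCggcggttagtgc
Eef1d-217, at chr15:75909283-75909306 on the minus strand: CTCTCCTTTgcagtcctgagctcg
Eif4a2-224, at chr16:23107758-23107781 on the plus strand: CTTTTCagtcgggcgctgagtggg
The run was 13 bases long in Eef1b2, 12 in Pabpc1, 9 in Eef1d and 6 in Eif4a2. Only the transcript shown had such a run, 1 of 2 coding transcripts of Eef1b2, 1 of 3 of Pabpc1, 1 of 15 of Eef1d and 1 of 6 of Eif4a2. No annotated start of the other 6 members opened with such a run, and by the same search 5.12% of 21877 coding genes and 28.9% of 76 ribosomal protein genes had one. An annotated 5′ end can lie some bases from the start that cells use, so the search describes these annotated letters only.

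The members differed widely in depth, which set what could be tested. Over all 120 libraries Tpt1 had 25633 counts, Eef1a1 8741, Pabpc1 6357, Eef2 2840, Eef1b2 1451, Npm1 1114 and Naca 657. Eef1g had 402 counts, Eif4a2 220 and Eef1d 162, and these 3 genes passed the filter on low counts in no comparison. Naca passed only in the treatment comparisons at T0 and T1. Reads were taken from the 3′ end of transcripts, and levels of different members were not ranked. Ratios between genes, given below, were compared only between groups of libraries. Tpt1 has 6 pseudogenes that GENCODE names after it, and Eef1a1, Npm1 and Naca also have processed copies in the mouse genome, so their counts are uncertain to the extent that reads were shared with copies.

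Libraries held 20000 to 114061 counts (median 49515), and 8 libraries had fewer than 30000. The precursor of ribosomal RNA, Rn45s, took 27.03% to 71.1% of a library's counts, and the 10 members together took 0.764% of all counts. Its median share was 62.2% with halofuginone at 625 to 10000 nM at T0 and 48.2% in T0 controls, 62.0% and 45.5% at T1, and 64.9% and 39.3% at T4. Levels below are CPM, counts scaled to a common library total after TMM scaling over all 120 libraries. Fold changes come from fits of the compared times or groups with their own TMM scaling, so a small one can differ in sign from the levels beside it. In bulk RNA fewer cells and less RNA per cell cannot be told apart. All 8 macrophage markers in the table were detected in controls at each time, and erythroid markers were at 0 in the high-dose and control groups. In those groups the highest sum in a library was 84.4 CPM for fibroblast markers and 54.5 CPM for dendritic ones. It was 52.8 CPM for T and NK cell markers and 18.4 CPM for B cell markers.

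Tpt1 encodes the translationally controlled tumor protein TCTP, a cytosolic protein and a standard example of TOP control. It was the member that rose with halofuginone, at all 3 times, while most of the ribosomal protein mRNAs fell. At T0 its lowest, median and highest level was 3559, 4775 and 5635 CPM in the 6 libraries given 625, 2500 or 10000 nM halofuginone, against 2762, 3739 and 5383 CPM in the 12 controls. At T1 these values were 3401, 4961 and 5863 CPM with halofuginone, against 2246, 3460 and 6060 CPM in controls. At T4 they were 3183, 4698 and 9565 CPM with halofuginone, against 2439, 2798 and 4735 CPM in controls. The groups overlapped at each time, and the treated medians stood above the control medians at all 3. Control replicate 10 was the highest control at each time. Tpt1 was higher by 0.40 ± 0.14 (log2 fold change ± SE) at T0, 0.66 ± 0.13 at T1 and 1.15 ± 0.14 at T4. The adjusted p-values of edgeR's quasi-likelihood test with Benjamini-Hochberg adjustment were 0.020, 4.7e-05 and 1.9e-11. As a share of all counts other than Rn45s, Tpt1 had a median of 1.155% with halofuginone at T4, against 0.499% in T4 controls. The T4 call held with other scaling, with DESeq2, with no filter, without the abundant non-coding RNAs, without libraries under 30000 counts and with 625 and 2500 nM alone, at fold changes of 0.70 to 1.06. With no filter on low counts the median of all genes was -0.80 at T0 and -1.04 at T1, and Tpt1 had 0.05 and 0.02, neither called. At T0 the call was also lost without the abundant non-coding RNAs (0.33, adjusted p = 0.050, edgeR). It was lost on leaving out any of 8 single libraries, which took the fold change as low as 0.22: 10000 nM replicate 1, 2500 nM replicates 1 and 2, 625 nM replicate 2 and control replicates 2, 4, 5 and 12. At T1 the fold change was 0.39 without 2500 nM replicate 1 (adjusted p = 0.039, edgeR).

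**Figure D1:**
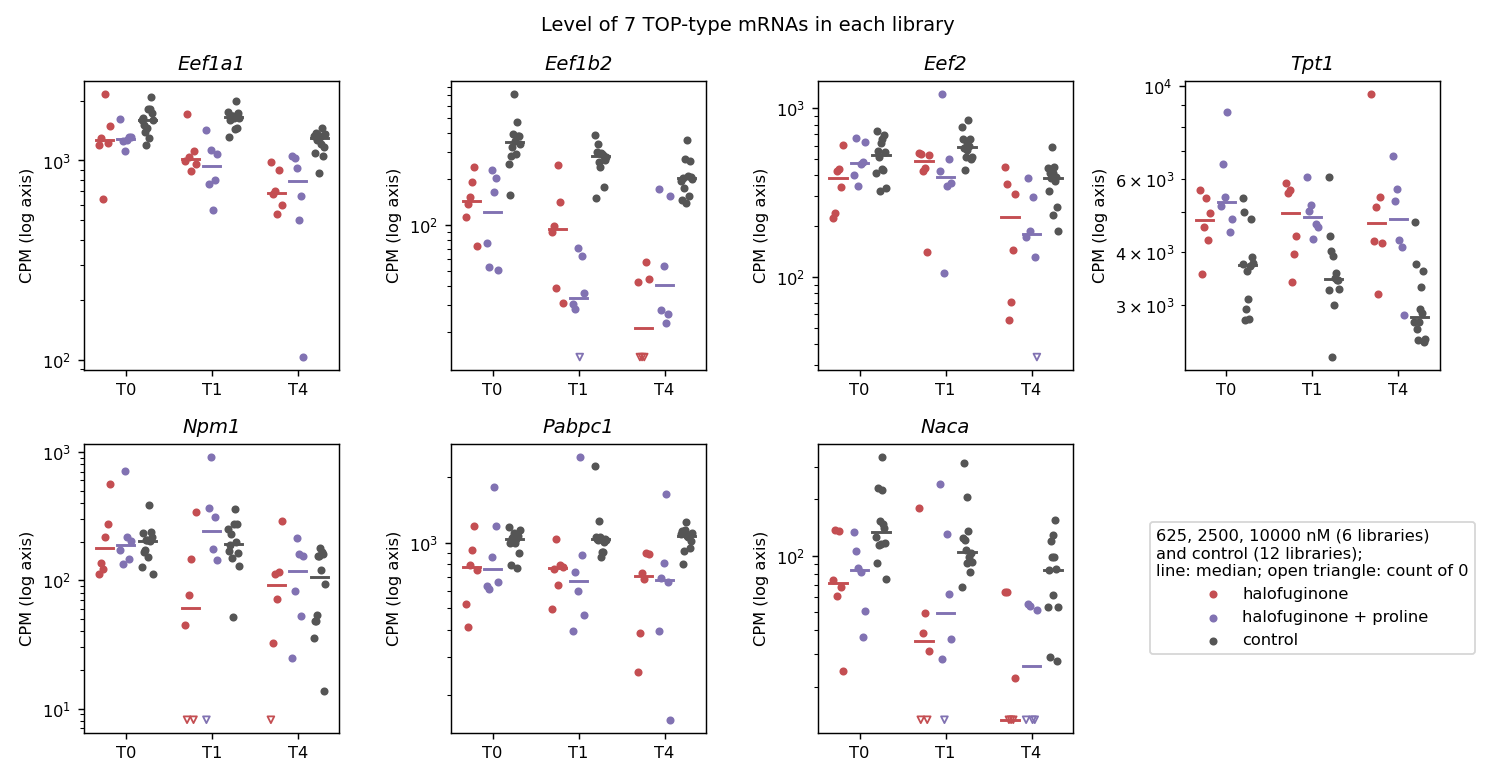
Level (CPM, log axis) of the 7 members with the most counts in each library at 625 to 10000 nM halofuginone without or with proline (6 libraries each) and in controls (12 libraries), by time. Horizontal lines are medians and open triangles are libraries with a count of 0, drawn below the lowest level above 0. Tpt1 shows treated medians above control medians at each time, and Eef1b2 shows the opposite.

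Eef1b2 encodes the beta subunit of eEF1B, the complex that reloads eEF1A with GTP. It fell with halofuginone at all 3 times. At T0 it had a lowest, median and highest level of 73.0, 144 and 239 CPM with halofuginone, against 156, 347 and 713 CPM in controls, and the groups overlapped. At T1 it had 31.1, 94.1 and 246 CPM with halofuginone, against 151, 281 and 386 CPM in controls, again with overlap. At T4 the 6 halofuginone libraries held 6 Eef1b2 counts in all, with both 2500 nM libraries and 1 of the 10000 nM libraries at 0, and the 12 controls held 208. The T4 levels were 0 to 57.7 CPM with halofuginone, against 140 to 360 CPM in controls, with no overlap. The log2 fold changes were -1.19 ± 0.32 at T0 (adjusted p = 0.0018, edgeR), -1.13 ± 0.39 at T1 (adjusted p = 0.016, edgeR) and -3.59 ± 0.70 at T4 (adjusted p = 1.1e-05, edgeR). With both 2500 nM libraries at 0, the size of the T4 fold change depends on the prior count of the fit. Over library totals scaled by TMM, the ratio of the summed T4 counts was 0.129. Its exact 95% Poisson interval of 0.0466 to 0.285 covers counting error only. The T1 call was lost without 2500 nM replicate 1 or 625 nM replicate 2, with fold changes of -1.82 to -0.95 as libraries were left out, and with 625 and 2500 nM alone (-1.09, adjusted p = 0.078, edgeR). The -1.82 was the value without 2500 nM replicate 2.

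Beside these 2 genes, 1 other member passed the test with halofuginone alone. Pabpc1, which encodes the cytoplasmic poly(A) binding protein, was lower at T4 (-0.46 ± 0.20, adjusted p = 0.048, edgeR). Its T4 levels were 256, 703 and 894 CPM with halofuginone (lowest, median and highest), against 800, 1076 and 1241 CPM in controls. Of the 6 treated libraries 4 were below all controls, and both 10000 nM libraries were the lowest. With 625 and 2500 nM alone the fold change was 0.0012 and not called. The call was also lost on leaving out 10000 nM replicate 1 or any of control replicates 1, 2, 3, 4, 5, 6, 8, 9 and 10, with fold changes of -0.68 to -0.42.

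Of the members tested with halofuginone alone, 1 of 7 was higher and 1 of 7 lower at T0, where 14.9% of 1130 genes were called higher and 23.5% lower. At T1 the counts were 1 higher and 1 lower of 7, against 11.1% higher and 23.3% lower of 1066 genes. At T4 they were 1 higher and 2 lower of 6, against 19.1% higher and 35.5% lower of 1315 genes. The median fold change of the members was -0.39 at T0, -0.26 at T1 and -0.41 at T4, beside -0.19, -0.21 and -0.23 over all genes tested.

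Eef1a1 encodes eEF1A, which brings aminoacyl-tRNA to the ribosome, and did not pass the test with halofuginone alone. At T4 its levels were 537, 688 and 982 CPM with halofuginone (lowest, median and highest), against 869, 1290 and 1463 CPM in controls. Of the 6 treated libraries 4 were below all controls. The fold changes were -0.18 ± 0.16 at T0, -0.25 ± 0.17 at T1 and -0.37 ± 0.18 at T4 (adjusted p = 0.39, 0.25 and 0.080, edgeR). Scaling by the median of ratios in place of TMM moved the median of all genes at T4 from -0.23 to -0.41, and Eef1a1 then passed at -0.55 (adjusted p = 0.0095, edgeR). Relative to the median of all genes it was at -0.14 under both scalings. It also passed on leaving out 10000 nM replicate 1, 2500 nM replicate 1 or 625 nM replicate 1, one at a time, with fold changes down to -0.59. At T0 it passed without 2500 nM replicate 2 (-0.61, adjusted p = 0.0061, edgeR), and at T1 without 10000 nM replicate 2 (-0.54, adjusted p = 0.030, edgeR). Eef2, which encodes the factor that moves the ribosome along the mRNA by a codon, had 55.9, 227 and 448 CPM with halofuginone at T4, against 187, 388 and 592 CPM in controls (-0.63 ± 0.32, adjusted p = 0.092, edgeR). It passed without 625 nM replicate 2 at T4 (-0.96) and at T0 (-0.68), and Pabpc1 passed at T0 without 625 nM replicate 1 (-0.56) or control replicate 11 (-0.46). Npm1, which encodes the nucleolar protein nucleophosmin, had fold changes of 0.12 ± 0.33 at T0, -1.19 ± 0.58 at T1 and -0.28 ± 0.58 at T4, none past the test. The T1 value passed without 10000 nM replicate 1 (-2.31) or 625 nM replicate 2 (-3.47). In each case that dose was left with 1 library at an Npm1 count of 0, so the size depends on the prior count of the fit. Naca, which encodes the alpha subunit of the nascent polypeptide associated complex, had -0.92 ± 0.44 at T0 and -1.41 ± 0.65 at T1 (adjusted p = 0.086 and 0.081, edgeR). Its T1 value passed without 10000 nM replicate 1 (-3.19), which also left that dose with 1 library at a count of 0.

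The 3 members too rare for the test are given as summed counts. Their rate ratios are over library totals scaled by TMM and would differ over unscaled totals. Eef1g, the gamma subunit of eEF1B, had 9 counts in 6 halofuginone libraries at T4 and 89 in 12 controls, a rate ratio of 0.451 (95% Poisson interval 0.1996 to 0.895). At T0 it had 5 and 57 counts and a ratio of 0.334 (0.104 to 0.825). Eef1d, the delta subunit, had 0 counts with halofuginone at T4 and 18 in controls, and the interval of the ratio reached 1.01. Eif4a2, a helicase of the initiation complex, had 2 counts with halofuginone at T4 and 18 in controls (0.495, interval 0.0557 to 2.07), and 9 and 28 at T0 (1.22, interval 0.508 to 2.67). With halofuginone and proline at T4, Eef1d had 9 counts (2.29, interval 0.908 to 5.38), 7 of them in 10000 nM replicate 2. Eef1g had 2 there (0.103, interval 0.0123 to 0.384), and so did Eif4a2 (0.510, interval 0.0574 to 2.13). At T1 with proline Eif4a2 had 14 counts, against 26 in controls (2.17, interval 1.05 to 4.32). These intervals cover counting error only and leave out the spread between libraries.

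**Figure D2:**
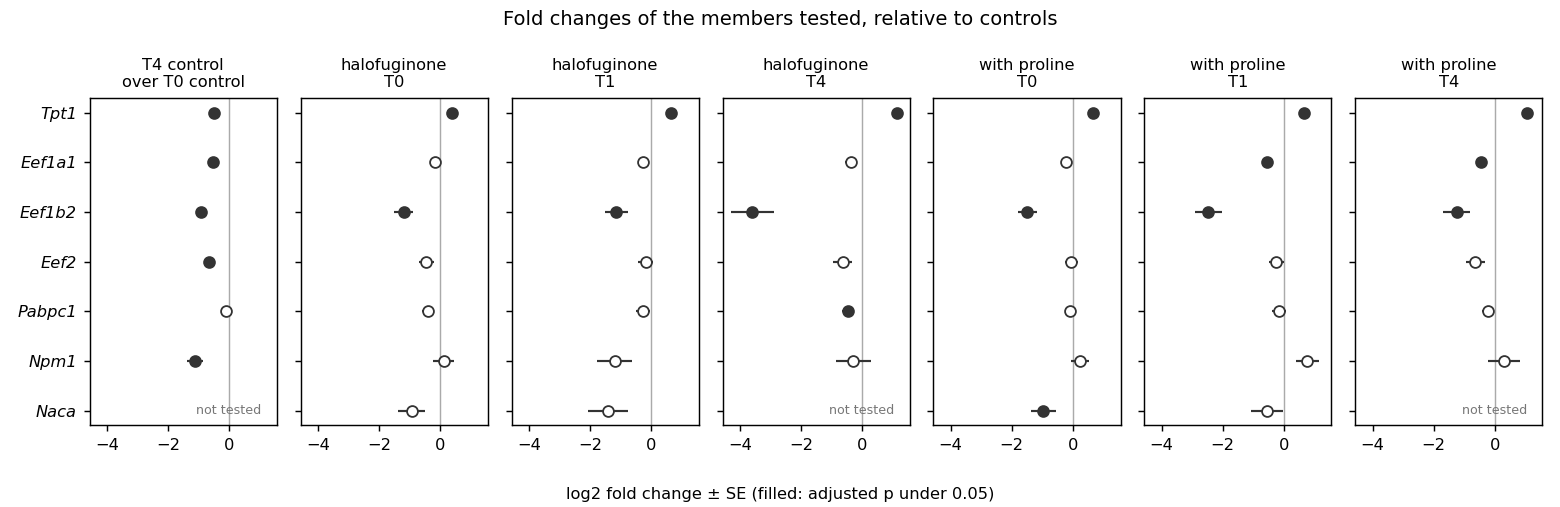
Log2 fold change ± SE of each member that could be tested, for T4 over T0 controls and for halofuginone at 625 to 10000 nM, without and with proline, over the controls of each time. Filled points had an adjusted p under 0.05. Tpt1 lies right of 0 in all 6 drug comparisons and left of 0 in the control comparison, and Eef1b2 lies left of 0 in all 7.

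With proline present the same 2 members moved in the same directions. Both sets of drug comparisons share their controls. Tpt1 had 4486, 5292 and 8661 CPM at T0 with halofuginone and proline (lowest, median and highest), 4304, 4849 and 6046 CPM at T1 and 2829, 4803 and 6789 CPM at T4, against the controls above. Its fold changes were 0.65 ± 0.14 at T0, 0.66 ± 0.13 at T1 and 1.05 ± 0.14 at T4 (adjusted p = 7.0e-05, 3.5e-05 and 9.5e-10, edgeR). Eef1b2 had 50.7, 121 and 229 CPM at T0, 0, 33.1 and 70.5 CPM at T1 and 22.9, 40.7 and 172 CPM at T4 with halofuginone and proline. All 6 T1 libraries were below all 12 T1 controls, and at T0 and T4 the groups overlapped. The Eef1b2 fold changes were -1.49 ± 0.31, -2.47 ± 0.45 and -1.24 ± 0.44 (adjusted p = 6.0e-05, 6.4e-06 and 0.015, edgeR). Eef1a1 passed as lower at T1 (-0.54 ± 0.17, adjusted p = 0.0069, edgeR) and T4 (-0.44 ± 0.19, adjusted p = 0.044, edgeR), and Naca at T0 (-0.97 ± 0.41, adjusted p = 0.048, edgeR). Leaving out any of 10 single libraries, all 6 treated ones and control replicates 4, 5, 6 and 11, ended the Naca call (-1.08 to -0.85). For Eef1a1 at T4 any of 9 did so, 2500 nM replicate 2, 625 nM replicate 2 and control replicates 1, 2, 4, 6, 9, 11 and 12 (-1.21 to -0.34). The -1.21 was the value without 625 nM replicate 1, and without 2500 nM replicate 1 it was -0.71. The Eef1b2 call at T4 was lost without 625 nM replicate 1 (-0.97), and without 10000 nM replicate 1 the value was -1.95. At T1, leaving out 2500 nM replicate 1 gave -3.99 for Eef1b2 and -0.87 for Eef1a1, and leaving out 10000 nM replicate 1 gave -0.84 for Eef1a1, all still called. The -3.99 comes from a fit with 1 library left at 2500 nM, at an Eef1b2 count of 0, so its size depends on the prior count. Calls gained with proline on leaving out 1 treated library were Npm1 as higher at T1 (0.96), and as lower Eef2 and Pabpc1 at T1 (-0.72 and -0.75) and at T4 (-2.60 to -0.87 and -0.83 to -0.54). The libraries were 10000 nM replicate 1 for Npm1, and at T1 10000 nM replicate 2 for Eef2 and 2500 nM replicate 2 for Pabpc1. At T4 they were 625 nM replicate 1 and 2500 nM replicate 2 for both genes, and 10000 nM replicate 2 for Eef2. The Eef2 value of -2.60 was that without 625 nM replicate 1, which left the dose with 1 library at an Eef2 count of 0, so its size depends on the prior count.

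Among the members tested with proline, 1 of 7 was higher and 2 of 7 lower at T0, where 18.9% of all genes tested were called higher and 24.4% lower. At T1 the counts were again 1 and 2 of 7, with 15.2% of genes higher and 23.5% lower, and at T4 they were 1 and 2 of 6, with 18.6% of genes higher and 33.5% lower. The direct test of proline at 625 to 10000 nM called no member at any time. It called 0.177% of 1130 genes at T0, 0% of 1066 at T1 and 0% of 1315 at T4 by edgeR, where 111, 117 and 140 genes had an unadjusted p under 0.05. For Tpt1 the difference with less without proline was 0.26 ± 0.17 at T0, -0.0032 ± 0.16 at T1 and -0.10 ± 0.16 at T4.

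With 9.7 and 39 nM pooled, the direct test of proline also called no member, with 3.63% of genes called in either direction at T0, 0.750% at T1 and 7.60% at T4. With median-of-ratios scaling 133 genes were higher and 24 lower with proline at T4, where TMM gave 66 and 34. Tpt1 had a difference of -0.56 ± 0.20 with less without proline at T4 and did not pass (adjusted p = 0.062, edgeR). Without 9.7 nM replicate 2 of the libraries lacking proline it passed, and over the 8 libraries left out the difference ran from -0.71 to -0.25. Within that pair of doses the libraries stood apart by dose. At 39 nM and T4, Tpt1 had 3032 and 3697 CPM with proline, against 6248 and 8047 CPM without it. At T1 it had 2896 and 3303 CPM with proline, against 4607 and 5921 CPM without, and at T0 3877 and 4548 CPM with proline, against 4978 and 7724 CPM without. Both libraries without proline were above both with it at each time. At 9.7 nM the order was the other way at T0, with 3374 and 3514 CPM with proline and 2619 and 2932 CPM without. It was so at T1 as well, with 3605 and 3984 CPM with proline and 2706 and 2943 CPM without. At T4 the 9.7 nM libraries overlapped, with 3150 and 3275 CPM with proline and 1710.0 and 3156 CPM without. The 39 nM dose was singled out after its values were seen, and it is described without a test.

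The dose profile of Tpt1 without proline at T4 ran over means of 3318 CPM at 2.4 nM, 2433 at 9.7 nM, 7147 at 39 nM, 4337 at 156 nM, 4818 at 625 nM, 4164 at 2500 nM and 6908 at 10000 nM. With proline the means were 2810, 3212, 3365, 3681, 3472, 4973 and 6055 CPM at the same doses. Without proline the step between 9.7 and 39 nM was the widest between neighbouring doses, and with proline it was the one between 625 and 2500 nM. Eef1b2 without proline at T4 had means of 250.3, 252, 117, 159, 51.0, 0 and 21.4 CPM over the same doses, and with proline 223, 309, 195, 109, 90.3, 38.3 and 99.9 CPM.

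**Figure D3:**
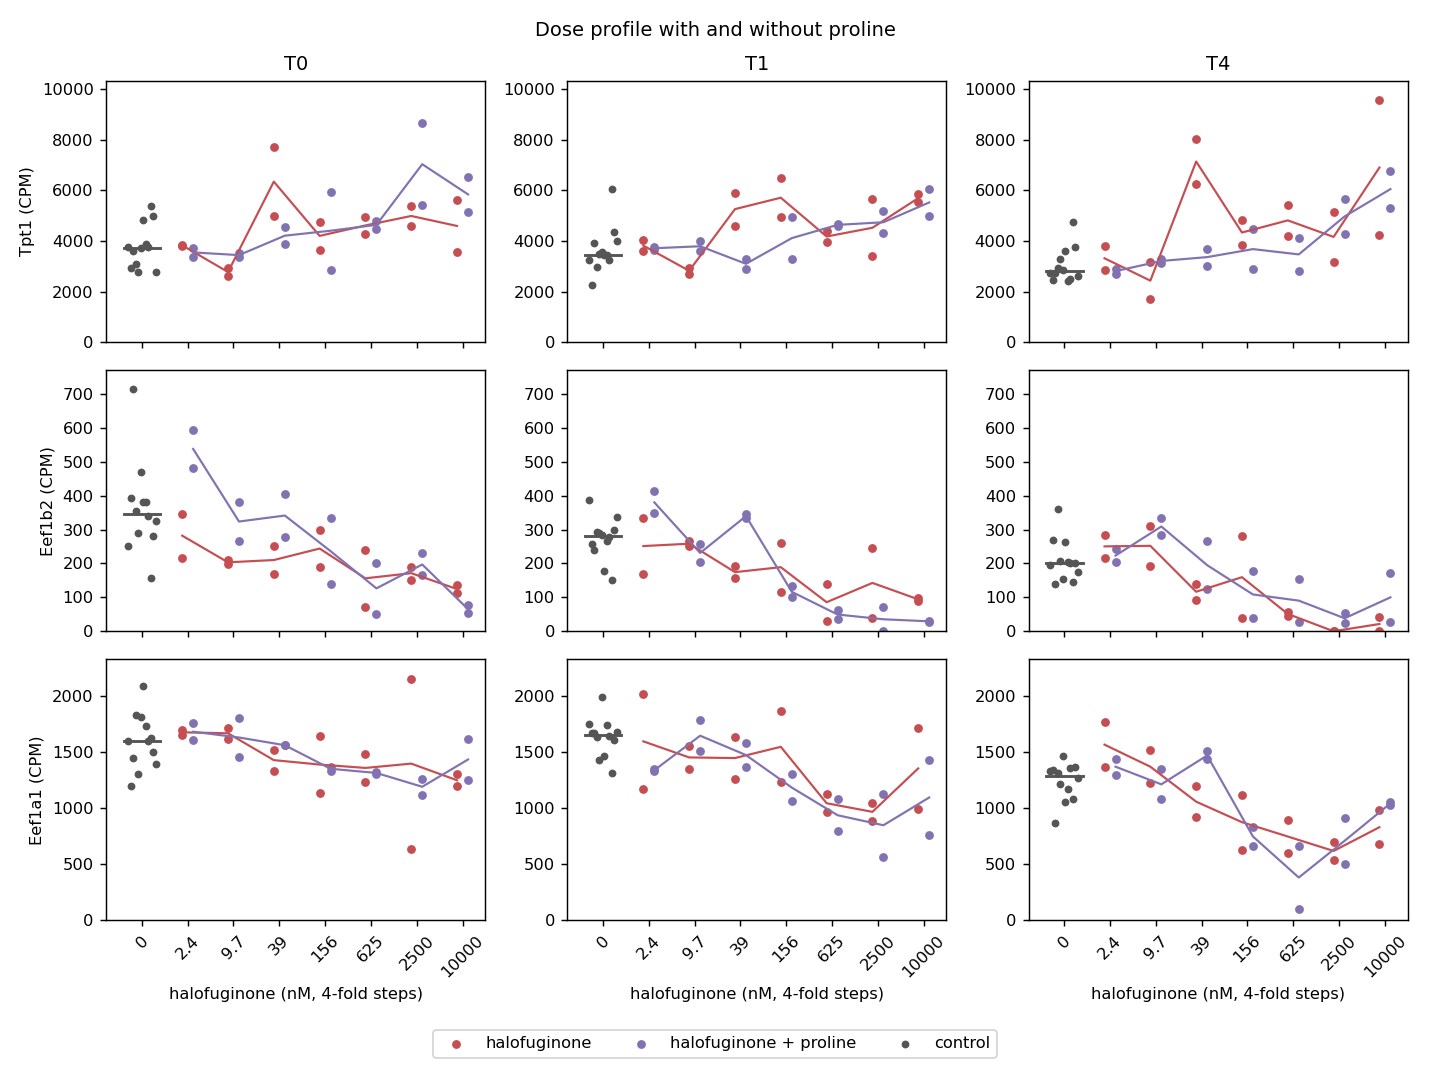
Level (CPM) of Tpt1, Eef1b2 and Eef1a1 by halofuginone dose, with controls at 0 (12 libraries, line at the median), in columns for T0, T1 and T4. Points are libraries and lines join the means of 2 libraries for halofuginone without and with proline. At 39 nM the Tpt1 points without proline lie above those with proline at each time.

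Slopes across the 7 doses, fitted without the controls and given as log2 change for each 10-fold step in dose, were positive for Tpt1 and Npm1 and negative for Eef1b2 where they passed. With proline, the Tpt1 slope was 0.35 ± 0.08 at T0, 0.28 ± 0.07 at T1 and 0.49 ± 0.10 at T4 (adjusted p = 0.00032, 0.0023 and 0.00013, edgeR). Without proline it was 0.18 ± 0.08 at T0, 0.30 ± 0.08 at T1 and 0.40 ± 0.11 at T4 (adjusted p = 0.082, 0.0037 and 0.0024, edgeR). The Eef1b2 slope with proline was -0.57 ± 0.13 at T0, -0.93 ± 0.18 at T1 and -0.38 ± 0.20 at T4 (adjusted p = 0.00029, 0.00016 and 0.10, edgeR). Without proline it was -0.17 ± 0.13, -0.26 ± 0.17 and -0.79 ± 0.23 (adjusted p = 0.35, 0.24 and 0.0061, edgeR). Npm1 had a slope of 0.41 ± 0.15 with proline at T0 (adjusted p = 0.030, edgeR), which rests on libraries whose levels at high dose ran from 133 to 717 CPM.

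At T0 with proline, 2 of 6 members had a rising slope and 1 a falling one, where 22.9% of 629 genes rose and 17.0% fell. Without proline none of 6 passed, where 31.5% of genes passed in either direction. At T1, 1 of 6 rose without proline and 1 rose and 1 fell with it, beside 11.2% of 563 genes rising and 15.5% falling without proline and 15.8% rising and 19.9% falling with it. At T4, 1 of 5 rose and 1 fell without proline, beside 15.3% of 675 genes rising and 23.9% falling, and 1 of 5 rose with it, beside 21.9% rising and 28.4% falling. The T4 split of genes turned with the scaling, to 63 rising and 212 falling without proline by median of ratios, where TMM gave 103 and 161, and to 95 and 240 with proline, where TMM gave 148 and 192. No member's slope differed between with and without proline by edgeR, and 52 of 629 genes at T0, 26 of 563 at T1 and 24 of 675 at T4 had an unadjusted p under 0.05 there.

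In the controls, 5 of the 6 tested members were lower at T4 than at T0. Eef1a1 had 869, 1290 and 1463 CPM at T4 (lowest, median and highest of 12), against 1198, 1600 and 2086 CPM at T0 (-0.53 ± 0.09, adjusted p = 2.8e-07, edgeR). Eef1b2 had 140, 201 and 360 CPM at T4, against 156, 347 and 713 CPM at T0 (-0.92 ± 0.18, adjusted p = 4.7e-06, edgeR). Eef2 had 187, 388 and 592 CPM at T4, against 325, 532 and 728 CPM at T0 (-0.66 ± 0.15, adjusted p = 7.6e-05, edgeR). The groups overlapped for all 3 genes.

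Npm1 had 13.6, 107 and 180.0 CPM at T4, against 113, 203 and 386 CPM at T0 (-1.12 ± 0.26, adjusted p = 9.7e-05, edgeR). Tpt1 was lower, with a fold change of -0.48 ± 0.14 (adjusted p = 0.0024, edgeR), so its direction between control times was the reverse of that with the drug. Pabpc1 had 800, 1076 and 1241 CPM at T4, against 765, 1046 and 1187 CPM at T0, and did not pass (-0.10 ± 0.11, adjusted p = 0.39, edgeR). Its levels and its fold change point in opposite directions, and they were scaled over different sets of libraries. Among the members tested, 5 of 6 were lower and none higher, where 39.7% of 708 genes were called lower and 36.6% higher. The median over the members was -0.60, beside -0.14 over all genes.

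Median-of-ratios scaling moved the median of all genes from -0.14 to 0.05 and the split of calls from 259 higher and 281 lower to 286 higher and 197 lower. Relative to that median, Eef1b2 was at -0.78, Eef2 at -0.52, Npm1 at -0.98, Tpt1 at -0.34 and Pabpc1 at 0.04 under both scalings, and Eef1a1 was at -0.39 by median of ratios. The Tpt1 call was lost with that scaling (-0.29, adjusted p = 0.058, edgeR), and the Pabpc1 fold change turned to 0.09. Between T4 and T1 controls 5 of 6 members were lower, where 31.1% of genes were lower, and the fold changes ran from -1.04 ± 0.26 for Npm1 to -0.37 ± 0.14 for Tpt1. Between T1 and T0 controls 1 of 6 was lower, Eef1b2 at -0.48 ± 0.18 (adjusted p = 0.034, edgeR), where 8.19% of genes were lower. That call was lost by median-of-ratios scaling (-0.42), by DESeq2 (-0.42) and with no filter (-0.31). It was also lost on leaving out any of T1 control replicates 7 and 10 or T0 control replicates 2, 3 and 6. Between T4 and T1 controls the Eef1b2 call was lost on leaving out any of T1 control replicates 1, 11 and 12 or T4 control replicates 1, 3, 5, 6, 8, 9, 10, 11 and 12 (-0.53 to -0.36). The Tpt1 call there was lost on leaving out T1 control replicate 10 or any of T4 control replicates 2, 3, 8, 9 and 12 (-0.44 to -0.26).

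Within the libraries given 625 to 10000 nM halofuginone without proline, Eef1a1 and Eef1b2 were lower at T4 than at T0. Eef1a1 had 537, 688 and 982 CPM at T4, against 638, 1265 and 2153 CPM at T0 (-0.90 ± 0.22, adjusted p = 0.00031, edgeR). Eef1b2 had a fold change of -2.42 ± 0.59 (adjusted p = 0.00031, edgeR). Tpt1 had 3183, 4698 and 9565 CPM at T4, against 3559, 4775 and 5635 CPM at T0 (0.12 ± 0.19, adjusted p = 0.60, edgeR). Of 6 members 2 were lower, where 30.1% of 1012 genes were lower and 22.5% higher.

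The test of the difference itself, the drug effect at T4 less that at T0, called no member by edgeR, with 303 of 1012 genes at an unadjusted p under 0.05. Tpt1 was nearest at 0.56 ± 0.23 (adjusted p = 0.066), and Eef1b2 was at -1.54 ± 0.64 (adjusted p = 0.081). By median-of-ratios scaling the median of all genes moved from -0.36 to -0.02, the split of calls from 14 higher and 189 lower to 33 and 120, and Tpt1 passed at 0.90 (adjusted p = 0.00077, edgeR). Relative to those medians the Tpt1 difference was 0.92 and 0.91.

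A ratio of 2 counts within a library does not depend on scaling, but a fall of Eef1a1 also raises a ratio to it. Eef1a1 had fold changes of -0.18, -0.25 and -0.37 with halofuginone at T0, T1 and T4, none past the test. In T4 over T0 controls it was at -0.53. The p-values of ratios to Eef1a1 therefore concern a difference from Eef1a1. The log2 ratio of Tpt1 to Eef1a1 was 1.89 ± 0.55 with halofuginone and 1.23 ± 0.28 in controls at T0 (mean ± SD, n = 6 and 12, exact two-sided permutation test, p = 0.0020, adjusted p = 0.023 over 45 such ratios). At T1 it was 2.09 ± 0.34 with halofuginone and 1.14 ± 0.43 in controls, and at T4 2.78 ± 0.27 and 1.28 ± 0.40. The differences were 0.66, 0.95 and 1.49, and the treated libraries above all controls numbered 4, 2 and 6 of 6. The adjusted p-values by the same exact test were 0.0057 at T1 and 0.0012 at T4. The ratio of Eef1b2 to Eef1a1 was lower with halofuginone at T4, with a difference of -2.002 (adjusted p = 0.0012, exact permutation test; -1.44 with a pseudocount of 1) and 6 of 6 treated libraries below all controls, and at T0 and T1 the differences of -0.83 and -0.80 did not pass. Eef2 and Pabpc1 had ratios to Eef1a1 that differed by -0.14 and -0.06 at T4 and did not pass. Between T4 and T0 controls the ratio of Pabpc1 to Eef1a1 was higher by 0.42 (permutation test, adjusted p = 0.026), with 3 of 12 above all T0 controls.

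The 79 listed ribosomal protein genes, the core of the TOP class, were mostly lower with halofuginone, where Tpt1 was higher. With halofuginone 64 of 77 tested were lower at T0, 62 of 76 at T1 and 73 of 76 at T4, with medians of -1.22, -1.43 and -2.51. At T1 and at T4, 1 was called higher. Their summed counts made up a median of 3.47% of all counts other than Rn45s with halofuginone and 8.18% in controls at T0, 3.00% and 6.78% at T1, and 1.27% and 5.14% at T4. The groups did not overlap at any of the 3 times. At T4 in controls 68 of 76 were lower than at T0, with a median of -0.52, close to the -0.60 of the members.

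Set against that sum, the better counted members stood higher with halofuginone, a comparison chosen after the fall of the ribosomal protein mRNAs was known. The sum itself fell, so any gene that fell less than the sum comes out higher in this ratio. The ratios of all other genes to the sum were not taken. The p-values of these ratios therefore concern a difference from the sum and do not show a rise of the members. Tpt1 counts were 26.9% to 33.9% of the ribosomal protein sum with halofuginone at T0, against 7.12% to 17.1% in controls. At T1 they were 23.2% to 52.8% with halofuginone, against 6.06% to 23.9% in controls, and at T4 58.9% to 154% with halofuginone, against 7.26% to 18.1% in controls. The log2 ratio was higher by 1.59 at T0, 1.87 at T1 and 3.11 at T4, with 6, 5 and 6 of 6 treated libraries above all controls. Eef1a1 was higher by 0.93, 0.92 and 1.620, Eef2 by 0.79, 0.96 and 1.48, and Pabpc1 by 0.80, 0.94 and 1.56. For these 4 genes the adjusted p-values over 50 ratios ran from 0.00067 to 0.013 (exact two-sided permutation tests, n = 6 and 12).

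Eef1b2 had differences of 0.10 at T0, 0.13 at T1 and -0.38 at T4 that did not pass, and with a pseudocount of 1 the T4 difference was 0.20. Npm1 was higher against the ribosomal protein sum by 1.36 at T0 and 2.17 at T4 (adjusted p = 0.0024 and 0.0098, exact permutation tests), and its difference at T1 was 0.00038. Naca had 0.48, 0.068 and 0.95 at the 3 times and did not pass. With a pseudocount of 1 its T4 difference was 1.47 and passed (adjusted p = 0.0012, exact permutation test). At T4 the halofuginone libraries held 6 Naca counts in all, with both 2500 nM libraries and 1 of the 625 nM libraries at 0. At a count of 0 the ratio is set by the pseudocount and the ribosomal protein sum, so neither T4 value shows a rise of Naca. The ratio of its summed T4 counts over library totals scaled by TMM was 0.322. In controls the ratio of Pabpc1 to that sum was higher at T4 than at T0 by 0.42, with 11 of 12 T4 libraries above all 12 T0 libraries (permutation test, adjusted p = 0.00067). The ratio of Eef1a1 differed by 0.00 and that of Tpt1 by 0.05 there, and neither passed.

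**Figure D4:**
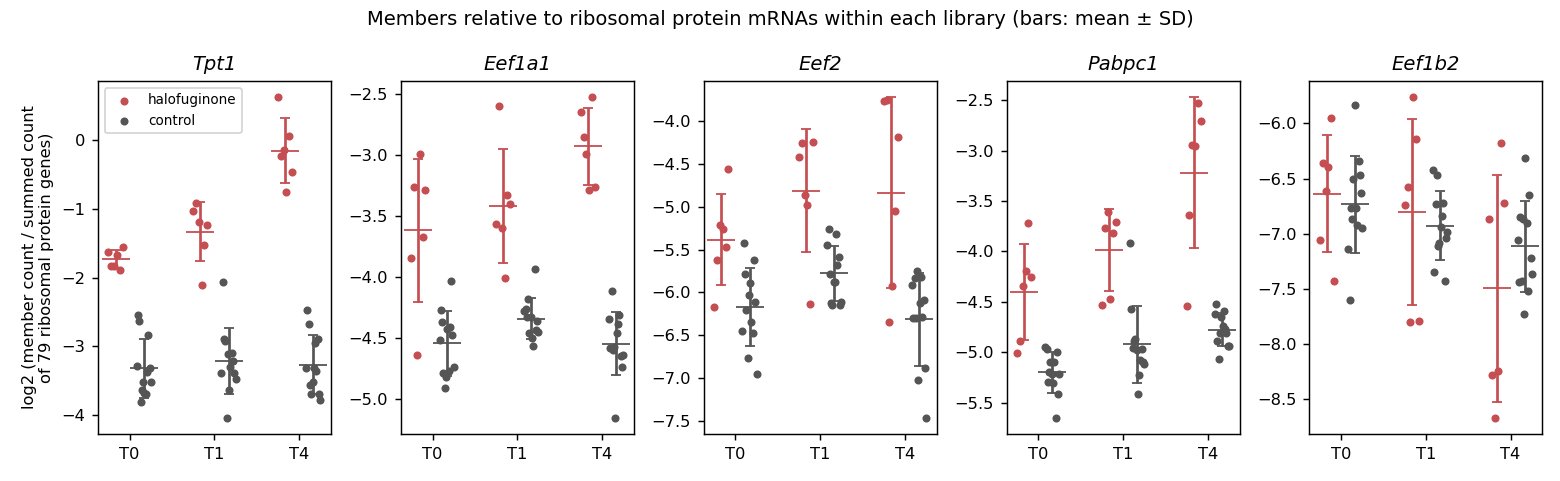
Log2 ratio of a member's count to the summed count of 79 ribosomal protein genes in each library at 625 to 10000 nM halofuginone without proline (6 libraries) and in controls (12 libraries), by time, with a pseudocount of 0.5. Bars are mean ± SD. Tpt1 has a mean of -0.15 at T4 with halofuginone, where controls have -3.27, and Eef1b2 overlaps the controls at each time.

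Transcript length moved with the fold change over all genes. The length of a gene was the median over its coding transcripts in the basic set of GENCODE M21. All its transcripts there were used if none was coding. This set is smaller than the one searched for 5′ ends. With halofuginone at T4 the median fold change was -2.45 for 172 genes under 1000 nt and -0.89 for 265 genes of 1000 to 2000 nt. It was 0.21 for 821 genes of 2000 nt or more. At T0 the medians were -1.21, -0.38 and 0.05. Without the ribosomal protein genes the medians at T4 were -2.35 under 1000 nt and 0.22 from 2000 nt. In the basic set the coding transcripts of Tpt1 are 996 to 1169 nt (median 1082.5) and those of Eef1b2 681 to 1939 nt (median 1310). That of Eef1a1 there is 1794 nt, that of Pabpc1 2817 nt and that of Eef2 3089 nt. The part of transcript length in these results was not tested.

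Marker sums moved as well. At T0 the 8 macrophage markers summed to 1276 to 1950.4 CPM with halofuginone, against 1543 to 1972 CPM in controls. At T1 they summed to 561 to 1886 CPM with halofuginone, against 1422 to 2575 CPM in controls. Lyz2 was at 0 with halofuginone at T1, where 7 of the 8 were detected. Of 6 neutrophil markers, 3 had a count with halofuginone and 5 in controls at T0, and 3 and 4 at T1, with Elane at 0 in all. Their sums were 0 to 149 CPM with halofuginone and 184 to 362 CPM in controls at T0, and 0 to 156 CPM and 203 to 428 CPM at T1, with no overlap at either time. At T4 the macrophage markers summed to 537 to 1219 CPM with halofuginone, against 1414 to 2288 CPM in T4 controls, with 8 of 8 detected in both. Of the neutrophil markers, 3 had a count in T4 libraries with halofuginone and 3 in T4 controls, with Elane, Mpo and Ltf at 0 in both, and the sums were 0 to 83.9 CPM and 88.4 to 403 CPM. The part of these cells and of the Rn45s share in the members' values was not tested.

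Other genes of the same pathways were taken from lists that exclude the members. Of 39 initiation factors, 16 were tested at T4 with halofuginone, 2 were higher and 5 lower, where 19.1% of all genes tested were higher and 35.5% lower, so the shares of the list were not above those of all genes. Eif4g1, the scaffold of the cap-binding complex, rose by 1.73 ± 0.31 (adjusted p = 2.0e-06, edgeR), and Eif3a, a subunit of the eIF3 complex, by 0.92 ± 0.27 (adjusted p = 0.0031, edgeR). Eif4a1, the main helicase of the cap-binding complex and the paralog of Eif4a2, fell by 2.97 ± 0.71 on the log2 scale (adjusted p = 0.00031, edgeR). At T0 the list gave 1 higher and 2 lower of 15, and at T1 2 higher and 1 lower of 14, beside 14.9% of all genes higher and 23.5% lower at T0 and 11.1% and 23.3% at T1. Eif5, which drives GTP hydrolysis on eIF2, rose at T0 by 1.21 ± 0.28 (adjusted p = 0.00035, edgeR) and at T1 by 1.73 ± 0.33 (adjusted p = 1.5e-05, edgeR).

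Of 20 further genes classed as TOP mRNAs, 19 were in the table. With halofuginone 1 was higher and 3 lower of 9 tested at T0, 1 higher and 2 lower of 8 at T1 and 2 lower of 7 at T4. Over all genes tested the shares were 14.9% higher and 23.5% lower at T0, 11.1% and 23.3% at T1 and 19.1% and 35.5% at T4. Gnb2l1, which encodes the ribosomal scaffold protein RACK1, fell, with fold changes of -1.67 ± 0.32 at T0, -1.15 ± 0.36 at T1 and -4.27 ± 0.62 at T4 (adjusted p = 1.5e-05, 0.0093 and 9.7e-09, edgeR). Fau, which encodes a fusion of a ubiquitin-like protein with the ribosomal protein S30, fell too, with -1.24 ± 0.26, -1.42 ± 0.33 and -2.55 ± 0.37 (adjusted p = 4.7e-05, 0.00043 and 1.3e-08, edgeR). Vim, the intermediate filament protein vimentin, was higher by 1.099 ± 0.19 at T0 (adjusted p = 2.7e-06, edgeR) and 0.69 ± 0.21 at T1 (adjusted p = 0.0065, edgeR).

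In T4 over T0 controls, 4 of the 6 tested of these TOP genes were lower and none higher, where 39.7% of all genes tested were lower and 36.6% higher. Nap1l1, a histone chaperone, was at -1.67 ± 0.23 and Eif4b, a partner of the eIF4A helicase, at -1.60 ± 0.23 (adjusted p = 1.2e-09 and 5.9e-09, edgeR). Of 11 initiation factors tested there, 1 was higher and 5 lower. The remaining lists were thinly covered with halofuginone at T4. Of 15 other elongation and termination factors 3 were tested and 1 was lower, Eif5a at -1.53 ± 0.52 (adjusted p = 0.010, edgeR), an elongation factor that helps ribosomes through runs of proline. Of 12 poly(A) binding and nascent chain partners 1 was tested and lower, the nuclear poly(A) binding protein Pabpn1 at -2.42 ± 0.87 (adjusted p = 0.015, edgeR). Of 24 nucleolar genes 1 was tested, nucleolin (Ncl) at 0.99 ± 0.50, which did not pass.

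Across the 45 group means, the genes whose log2 CPM followed the mean of the 10 members most closely were Gpnmb (Spearman's rho 0.88), Hexa (0.88), Ctsb (0.88), Gpx1 (0.87), Ftl1 (0.87) and Rpl13a (0.87), out of 1825 genes ranked. Among the members, Eef1a1 and Eef1b2 had a rho of 0.80 and Eef1a1 and Naca one of 0.72, while Tpt1 had -0.39 with Eef1a1 and -0.58 with Eef1b2. The 45 points share the depth of their libraries, and these values are descriptions with no test.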

How the data were processed

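RNA was measured by 3′ digital gene expression in 120 libraries, and the deposited table holds raw counts for 23481 gene symbols, per the file headers. The submitters' processing notes name BWA and the mm10 build, and the sources used here give neither the counting rule nor its use of strand. Every column of the table was used, and no row lacked a gene name.

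Counts were filtered in edgeR 4.0.16 (R 4.3.3) with filterByExpr at a minimum count of 10, scaled by TMM and tested by the quasi-likelihood F test with Benjamini-Hochberg adjustment over all genes tested, at a threshold of 0.05. The SE of a log2 fold change is its size divided by the square root of F. High dose means the mean of the fitted levels at 625, 2500 and 10000 nM, from a fit of the 40 libraries of a time. The controls of a time serve both drug arms. Ratios were tested by permutation over libraries (numpy 2.4.6) with a pseudocount of 0.5. The permutation test was exact for 6 against 12 libraries, where the smallest p is 5.39e-05, and used 100000 resamples for 12 against 12. DESeq2 1.42.0, median-of-ratios scaling, no filter, removal of 6 abundant non-coding RNAs and removal of libraries under 30000 counts were alternatives. So were fewer doses, a replicate block and leaving out single libraries of the compared groups. Single libraries were left out only in the comparisons of control times, of drug with control and of proline with none. The dose slopes, the comparison of times under halofuginone, the difference of effects and the ratios had no library left out. The procedure was tested on simulated data. Among 240 pairs of replicates none held identical values, and none had counts that agreed within sampling noise (chi-square p over 0.05).

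All 10 members are named. Of each other list, up to 3 genes with the smallest adjusted p and up to 2 that did not pass were open to naming in a comparison. The members and lists were chosen with earlier results of these data known. Gene positions and 5′ ends are from GENCODE M21.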

Additional observations from a re-analysis of the deposited data

Results flagged for a closer look

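Among 40 sets of 6 libraries at 625 to 10000 nM, 4 held a library far from the other 5. The measure was its gap to the nearest library over the range of the set, against Dixon's 95% critical value for 6 samples. Gaps were taken on log2 CPM with a prior count of 3, so they do not follow from the CPM values given here. Chance gives about 1 in 20 such sets. Npm1 at T0 was highest in 2500 nM halofuginone with proline replicate 1, at 717 CPM, with a gap of 0.734 of the range. Eef1a1 at T1 was highest in 10000 nM halofuginone replicate 2, at 1714 CPM, with a gap of 0.648. Eef2 at T1 was lowest in 625 nM halofuginone replicate 1, at 140 CPM, with a gap of 0.807. Eef1a1 at T4 was lowest in 625 nM halofuginone with proline replicate 2, at 103 CPM, with a gap of 0.647. The cause of these values was not tested.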

How the results depend on the processing

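The number of members called changed most with the filter. With no filter it was 0 in T1 over T0 controls (1 with the filter), 3 in T4 over T0 controls (5) and 3 in T4 over T1 controls (5). For halofuginone alone it was 4 at T0 (2), 6 at T1 (2) and 6 at T4 (3), and with proline 6 at T4 (3). With no filter, all genes called for halofuginone were 127 higher and 434 lower of 12584 at T0, 32 and 501 of 12206 at T1 and 96 and 772 of 11796 at T4, and with proline 75 and 641 of 11796 at T4. For the T0 slopes it was 1 without proline (0) and 1 with it (3), and 1 in T4 over T0 under halofuginone (2). Both DESeq2 and median-of-ratios scaling gave 0 in T1 over T0 controls, 3 in T4 over T1 controls and 5 for halofuginone at T4. Both also gave 2 for the T4 slope with proline and 1 for the drug effect at T4 less that at T0. Of all genes in T1 over T0 controls, DESeq2 called 136 higher and 35 lower of 708, and median of ratios 136 and 28. In T4 over T1 controls they called 244 and 171, and 243 and 172, of 708. For halofuginone at T4 they called 191 and 495, and 178 and 496, of 1315. The T4 slope with proline gave 102 and 249, and 95 and 240, of 675. The difference of effects gave 45 and 135, and 33 and 120, of 1012. DESeq2 gave 4 members for the T4 slope without proline (2), where it called 81 genes rising and 217 falling of 675. Without the abundant non-coding RNAs the counts were 4 at T1 and 5 at T4 for halofuginone and 1 for the difference of effects. Without libraries under 30000 counts they were 6 with proline at T1 (3), 5 for halofuginone at T4 and 2 for the T1 slope without proline (1). With 625 and 2500 nM alone they were 1 for halofuginone at T1 and 4 in T4 over T0 under halofuginone. All genes then gave 95 higher and 166 lower of 1066, and 224 and 306 of 1298. A count of members with no share of all genes beside it says only how the members' calls moved.

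Directions turned for weakly changed values. Pabpc1 in T4 over T0 controls was 0.087 by DESeq2, 0.086 by median of ratios and 0.20 with no filter. With no filter Npm1 was -0.21 for halofuginone at T0 and -0.12 with proline at T4, and the Tpt1 T0 slope without proline was -0.0063. Without libraries under 30000 counts Npm1 with proline at T4 was -0.058. With 625 and 2500 nM alone Pabpc1 with proline was 0.21 at T0 and 0.11 at T1, and for halofuginone at T4 Npm1 was 0.82 and Pabpc1 0.0012. The ratio of Eef1b2 to ribosomal proteins at T4 was 0.20 with a pseudocount of 1. The cause was not tested.

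A dose left with 1 library was taken to vary like the other groups. Leaving out single libraries gave 0 to 1 members in T1 over T0 controls, 3 to 5 in T4 over T1 controls, 1 to 3 for halofuginone at T0, 1 to 4 at T1, 0 to 1 for proline at high dose at T1 and 0 to 1 for proline at 9.7 and 39 nM at T4. Values that crossed 0 were Npm1 for halofuginone at T0 (-0.16 to 0.22) and T4 (-1.39 to 0.044), Npm1 with proline at T0 (-0.14 to 0.43), T1 (-1.47 to 0.96) and T4 (-0.16 to 0.47), Eef2 with proline at T0 (-0.19 to 0.028), Pabpc1 with proline at T0 (-0.31 to 0.042) and Tpt1 with against without proline at 9.7 and 39 nM at T0 (-0.29 to 0.048).

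Replicate numbers were shared by groups, and not every same-numbered pair deviated together: 0 of 21 pairs of drug arms had a correlation over 0.1 (-0.066 to 0.081), and 8 of 36 pairs of controls did (-0.023 to 0.27), among them all 3 pairs of times for control replicates 9 and 10. With the replicate block the members called were 0 for halofuginone at T0 (Eef1b2 -1.13, adjusted p = 0.071, and Tpt1 0.53, adjusted p = 0.10, edgeR), 1 with proline at T4 (Tpt1) and 1 for the difference of effects, Eef2 with proline at T0 was 0.40 and Naca with proline at T1 was 0.015. Eef1d, Eef1g and Eif4a2 did not pass the filter on low counts of the main fits, and the fits with no filter included them.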
